A study of Mus musculus with 13 samples.

Results

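The messenger RNAs of 10 xenobiotic-metabolising enzymes were followed in mouse lung: the cytochrome P450 genes Cyp1a1, Cyp1b1, Cyp2b10, Cyp2e1, Cyp2f2 and Cyp4b1, the flavin-containing monooxygenases Fmo1 and Fmo2, the microsomal epoxide hydrolase Ephx1 and the paraoxonase Pon1. They were taken by symbol, by a rule that sets no threshold on their values, and are 10 of the 32544 genes of the deposited count table. Quant-seq, which reads the 3′ end of polyadenylated transcripts, was run on lungs of wild-type (WT) male C57BL/6J mice bought at 7 weeks of age. The normoxia group breathed 21% oxygen (7 libraries) and the hyperoxia group breathed 80% oxygen (6 libraries), both for 5 days, and the lungs were perfused and frozen. No other agent or allele is named for either group. The labels number the samples but do not state that each came from its own mouse, so that p-values measure the spread between these samples.

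Cytochrome P450 enzymes insert 1 oxygen atom into lipophilic substrates, with electrons passed on by P450 reductase, and flavin-containing monooxygenases do so at nitrogen or sulfur atoms with their own flavin. Epoxide hydrolases and paraoxonases then open reactive epoxides, lactones and esters with water. In the lung much of this activity lies in club cells of the airway epithelium, and Cyp1a1 and Cyp1b1 are classical targets of the aryl hydrocarbon receptor (AhR).

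The total count was between 1607111 and 3387736 in the normoxic libraries and between 2029006 and 4540288 in the hyperoxic libraries. All 10 genes passed the filter on low counts, which kept 12496 genes for the test. Hyperoxia replicate 1 stood apart, since its log2 CPM values correlated with those of the other 12 libraries at 0.721 to 0.833, against 0.854 to 0.967 among those 12. Results that rest on this library are given with and without it. The library names fall into a set of letters B to M (5 normoxic, 3 hyperoxic) and a set O to S (2 normoxic, 3 hyperoxic), whose meaning is not given in the sources used here, and values are also given within each set. Markers of lung cells were present in both groups, such as Scgb1a1 of club cells and Sftpc of type II cells.

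The 150 bases before the transcription start are shown for the AhR target genes Cyp1a1 and Cyp1b1, for Cyp2b10, which also holds the AhR core motif, and for Cyp2f2 and Pon1, whose levels separated the groups. Capitals mark GCGTG, the core to which AhR and its partner ARNT bind, in either orientation (CACGC when it lies on the other strand), and the TATA box TATAAA. The sequences are from RefSeq (GRCm38.p6) and read 5′ to 3′ on the strand of the gene. For Cyp2b10 and Cyp2f2 the GENCODE model begins before the RefSeq start, so that the last bases shown lie inside that model. The GENCODE model of Cyp1a1 has a start far upstream, so that all bases shown for it lie inside that model.
Cyp1a1, chr9:57697463-57697612, plus strand: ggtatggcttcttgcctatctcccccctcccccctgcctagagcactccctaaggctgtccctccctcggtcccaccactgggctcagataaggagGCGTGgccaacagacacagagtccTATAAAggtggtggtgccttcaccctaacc
Cyp1b1, chr17:79715062-79715211, minus strand: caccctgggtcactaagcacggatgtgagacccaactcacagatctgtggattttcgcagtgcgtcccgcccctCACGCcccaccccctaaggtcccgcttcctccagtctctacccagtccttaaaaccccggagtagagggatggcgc
Cyp2b10, chr7:25897508-25897657, plus strand: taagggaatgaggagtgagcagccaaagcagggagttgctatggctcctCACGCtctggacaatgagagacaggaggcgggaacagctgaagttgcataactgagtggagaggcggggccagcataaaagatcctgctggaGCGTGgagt
Cyp2f2, chr7:27119805-27119954, plus strand: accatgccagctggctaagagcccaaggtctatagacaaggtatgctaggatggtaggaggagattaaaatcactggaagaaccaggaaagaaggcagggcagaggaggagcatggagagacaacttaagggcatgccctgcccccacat
Pon1, chr6:5193947-5194096, minus strand: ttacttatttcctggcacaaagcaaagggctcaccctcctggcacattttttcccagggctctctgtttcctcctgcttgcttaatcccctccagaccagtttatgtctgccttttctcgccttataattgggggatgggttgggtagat
In the 250 bases before the start, GCGTG on either strand was found in 3 of the 9 genes with a promoter entry and in 28.2% of all 32851 promoters. TATAAA was found in 3 of the 9, namely Cyp1a1, Cyp2e1 and Ephx1, and in 12.4% of all promoters. In Cyp1a1 the AhR core lay 54 to 50 bases before the start and the TATA box 30 to 25 bases before it. No AhR core was found in the windows of Cyp2f2 or Pon1. These matches describe letters in a window and not bound sites.

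In hyperoxic lung 4 of the 10 genes were lower, namely Cyp1a1, Pon1, Cyp2f2 and Fmo1, and the other 6 did not pass the test. A gene was called when its p from edgeR's quasi-likelihood test, adjusted by Benjamini-Hochberg over all 12496 genes, was under 0.05, and 10.8% of the tested genes were lower by this rule. No member was higher by edgeR, against 11.8% of the tested genes, and 0 members were higher at an unadjusted p under 0.05 or by DESeq2. The log2 fold changes of the 4 called genes ran from −3.60 for Cyp1a1 to −1.74 for Fmo1, all beyond −1.5, and 2.35% of all tested genes were both called lower and beyond that limit. In Cyp2f2, Fmo1 and Pon1 every hyperoxic library lay below every normoxic library, which held for 5.23% of the tested genes. The median log2 fold change was −0.34 over the 10 genes and −0.03 over all genes tested. Lung tissue was measured in bulk, and fewer cells of a type and less RNA per cell cannot be told apart.

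**Figure D1:**
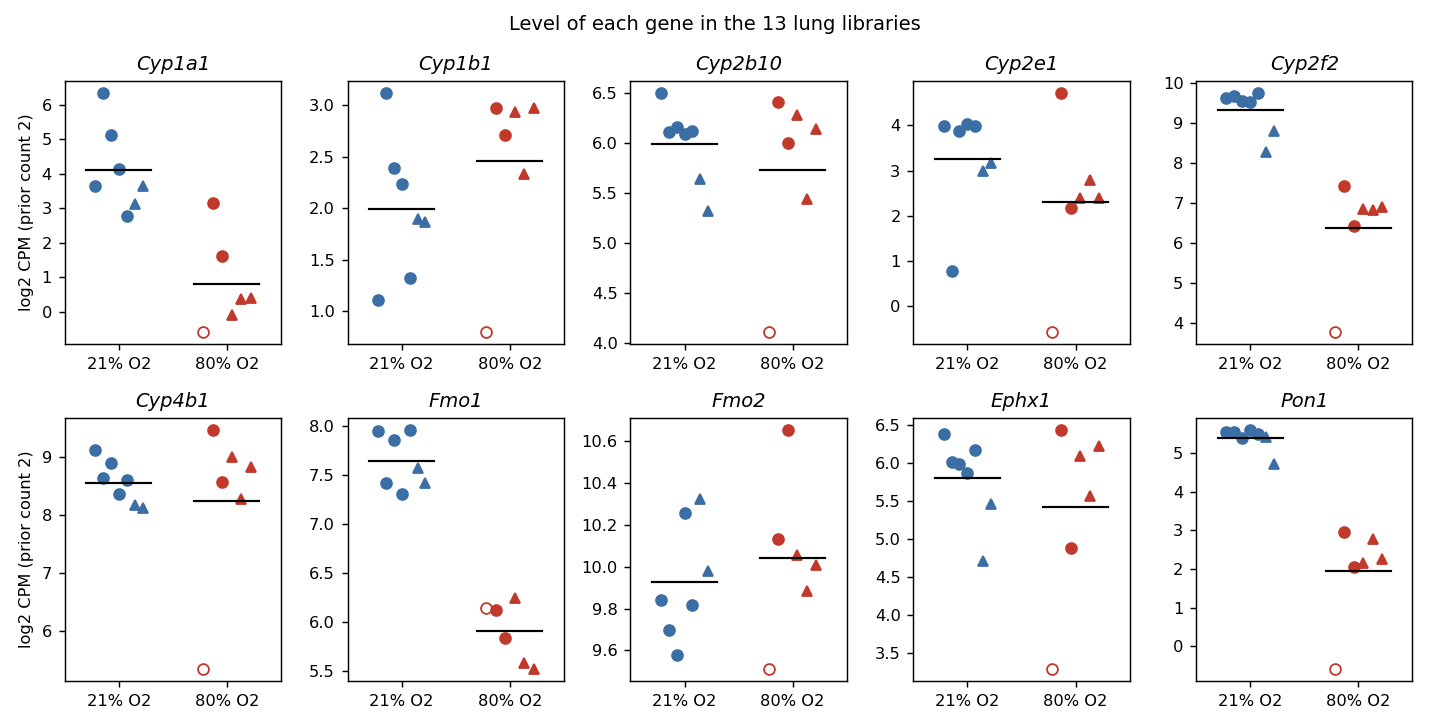
Level of each of the 10 genes in log2 CPM (prior count of 2) in the 7 normoxic (blue) and 6 hyperoxic (red) libraries; circles are libraries of letters B to M, triangles those of O to S, the open circle is hyperoxia replicate 1 and bars are group means. The groups do not overlap for Cyp2f2, Fmo1 and Pon1, and the open circle is the lowest hyperoxic library in every panel but that of Fmo1.

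Cyp2f2, the P450 of club cells that turns naphthalene into its toxic epoxide, lies on chromosome 7 from 27119909 to 27133660 (GRCm38, plus strand). In CPM (counts scaled to a common library size, with TMM factors), the 7 normoxic libraries had 310, 451, 742, 756, 794, 824 and 866 CPM. The 6 hyperoxic libraries had 12.9, 85.8, 113, 116, 118 and 173 CPM. The highest hyperoxic library was thus below the lowest normoxic one, and hyperoxia replicate 1 was the lowest of all. The means were 678 ± 211 (SD, n = 7) and 103 ± 52.5 CPM (SD, n = 6), a level 6.55-fold lower in the fit. The log2 fold change was −2.71 ± 0.41 (SE), with an adjusted p of 2.4e-04 by edgeR and an exact two-sided permutation p of 0.000583, the smallest that this test can give with 7 and 6 libraries. Without hyperoxia replicate 1 it was −2.47. Among libraries of letters B to M alone the mean log2 CPM differed by −3.76, and among those of letters O to S by −1.69. The antisense gene Gm15883 overlaps Cyp2f2, and whether the counting used the strand is not given in the sources used here.

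Some markers of club cells were lower beside Cyp2f2. Of 10 such markers, 4 were lower (Scgb1a1, Hp, Cldn10 and Gabrp), 6 were not called, 0 were higher and none was at 0, with a median log2 fold change of −1.11. Their summed level was between 15161 and 53443 CPM in normoxia and between 695 and 10906 CPM in hyperoxia, or 3688 to 10906 CPM without hyperoxia replicate 1. Scgb1a1 dominated this sum, with a mean of 33862 CPM in normoxia against 789 CPM for the next marker, Scgb3a2. The 2 normoxic libraries of letters O to S had the lowest sums of their group, 15161 and 23887 CPM, and also the lowest Cyp2f2. Scgb1a1, the secretoglobin that club cells release, had a log2 fold change of −2.96 (adjusted p = 0.00188, edgeR). The part of club cells in the lower Cyp2f2 was not tested.

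Pon1, a lactonase and esterase known mainly as a liver product carried on high-density lipoprotein, lies on chromosome 6 from 5168090 to 5193946 (minus strand). It had 25.6, 41.2, 41.8, 44.7, 46.3, 46.5 and 48.1 CPM in normoxia. In hyperoxia it had 0, 3.47, 3.77, 4.15, 6.25 and 7.18 CPM. The groups lay far apart, and the normoxic libraries other than replicate 7 were close to each other. The library at 0 was hyperoxia replicate 1, where 3 counts, the limit that a count of 0 allows, correspond to 1.61 CPM for counting error alone. The means were 42.0 ± 7.68 (SD, n = 7) and 4.14 ± 2.51 CPM (SD, n = 6), and the fitted level was 9.77-fold lower. The log2 fold change was −3.29 ± 0.36 (SE), with an adjusted p of 1.3e-05 by edgeR and an exact permutation p of 0.000583. Without hyperoxia replicate 1 it was −3.07, and within the letter sets the differences in mean log2 CPM were −4.04 and −2.66.

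Markers of hepatocytes were at or near 0: the 8 genes, Alb among them, summed to between 0.54 and 5.21 CPM per library, and 0 of them passed the filter. Markers of type II alveolar cells, which make surfactant, were lower beside Pon1: 7 of 10 were called lower, 0 higher and none was at 0. Their sum was between 15538 and 26982 CPM in normoxia and between 4759 and 8974 CPM in hyperoxia. The part of these cells in the lower Pon1 was not tested. Lower markers were not particular to type II cells, since 6 of 6 B cell markers and 3 of 8 ciliated cell markers were also called lower. Of the tested type I cell markers 1 of 9 was lower and of neutrophil markers 0 of 5, against 10.8% of all tested genes. The paralogs Pon2 and Pon3 were not called, with log2 fold changes of −0.05 ± 0.13 and −0.29 ± 0.14 (SE).

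Fmo1 had the smallest adjusted p of the 10 genes. It lies on chromosome 1 from 162829561 to 162866610 (minus strand), next to Fmo2 on the same strand (162874317 to 162898726). Its levels were 158, 170, 170, 190, 231, 247 and 249 CPM in normoxia. In hyperoxia they were 45.3, 47.2, 56.6, 68.8, 70.2 and 75.1 CPM. Again no hyperoxic library reached the lowest normoxic one, and hyperoxia replicate 1, at 70.2 CPM, was among the higher libraries of its group. The means were 202 ± 39.0 (SD, n = 7) and 60.5 ± 12.7 CPM (SD, n = 6), with a log2 fold change of −1.74 ± 0.17 (SE; adjusted p = 5.4e-06, edgeR; exact permutation p = 0.000583). The difference was alike in the letter sets, −1.66 and −1.71 in mean log2 CPM, and in the fit without hyperoxia replicate 1, −1.77. Of 9 markers of alveolar fibroblasts, 7 were tested and 5 were lower, with sums of 2449 to 2945 CPM in normoxia and 1355 to 1799 CPM in hyperoxia. Limch1, which was not called, was a large part of these sums, with means of 1280 CPM in normoxia and 1011 CPM in hyperoxia. The defining marker Tcf21 was at 0 in some libraries of both groups, and the part of these cells in the lower Fmo1 was not tested.

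Fmo2, the main flavin-containing monooxygenase of lung, did not pass the test. It had 764, 829, 902, 918, 1010, 1224 and 1282 CPM in normoxia and 729, 946, 1029, 1062, 1123 and 1613 CPM in hyperoxia. The ranges overlapped, with the lowest and the highest level both in hyperoxic libraries. The log2 fold change was 0.13 ± 0.18 (SE, 95% interval −0.26 to 0.52, adjusted p = 0.658, edgeR). The neighbouring genes of the same family thus had different results, and the ratio of Fmo1 to Fmo2 counts within each library, which no scaling between libraries can move, was compared after the values had been seen. Its log2 was between −2.95 and −1.72 in normoxia and between −4.83 and −3.37 in hyperoxia, a difference of −1.85. It is one of 3 ratios chosen in this way, which are given as descriptions with no test.

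Cyp1a1, the AhR-induced hydroxylase of polycyclic hydrocarbons, had the widest interval of the 10 genes. Its fold change was the largest in the fit to all libraries, but that of Pon1 was larger without normoxia replicate 2 (−3.25 against −2.88) and with limma on the log10 values (−3.34 against −3.06). It lies on chromosome 9 from 57687928 to 57703824 (plus strand), and its promoter, shown above, holds 1 AhR core. It had 6.13, 8.08, 11.9, 11.9, 16.8, 34.0 and 80.0 CPM in normoxia. In hyperoxia it had 0, 0.27, 0.63, 0.66, 2.43 and 8.31 CPM. Of the 6 hyperoxic libraries, 5 lay below all normoxic libraries, and hyperoxia replicate 2 overlapped with them. The counts were small, with 494 reads over the normoxic and 35 over the hyperoxic group, and 4 hyperoxic libraries held at most 3 counts. The log2 fold change was −3.60 ± 0.80 (SE, 95% interval −5.30 to −1.90), with an adjusted p of 0.00430 by edgeR and an exact permutation p of 0.00175. It was −2.88 without normoxia replicate 2, the library with 80.0 CPM, −4.81 without hyperoxia replicate 2 and −3.41 without hyperoxia replicate 1. Over these and the other alternatives that kept the gene, its adjusted p was between 0.000735 and 0.0129. Within letters O to S the mean log2 CPM differed by −3.16, and within letters B to M by −2.996.

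Cyp1b1, the AhR target that hydroxylates oestrogens and polycyclic hydrocarbons outside the liver, did not follow Cyp1a1. It was low, at 1.49 to 8.04 CPM (median 3.07) in normoxia and 1.07 to 7.22 CPM (median 6.45) in hyperoxia. The ranges overlapped, and the log2 fold change was 0.56 ± 0.41 (SE, 95% interval −0.30 to 1.42, adjusted p = 0.356, edgeR). The log2 ratio of Cyp1a1 to Cyp1b1 counts was between 1.36 and 3.29 in normoxia and between −4.14 and 0.21 in hyperoxia, a difference of −4.48. As with the ratio of Fmo1 to Fmo2, this comparison was chosen after the values had been seen.

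**Figure D2:**
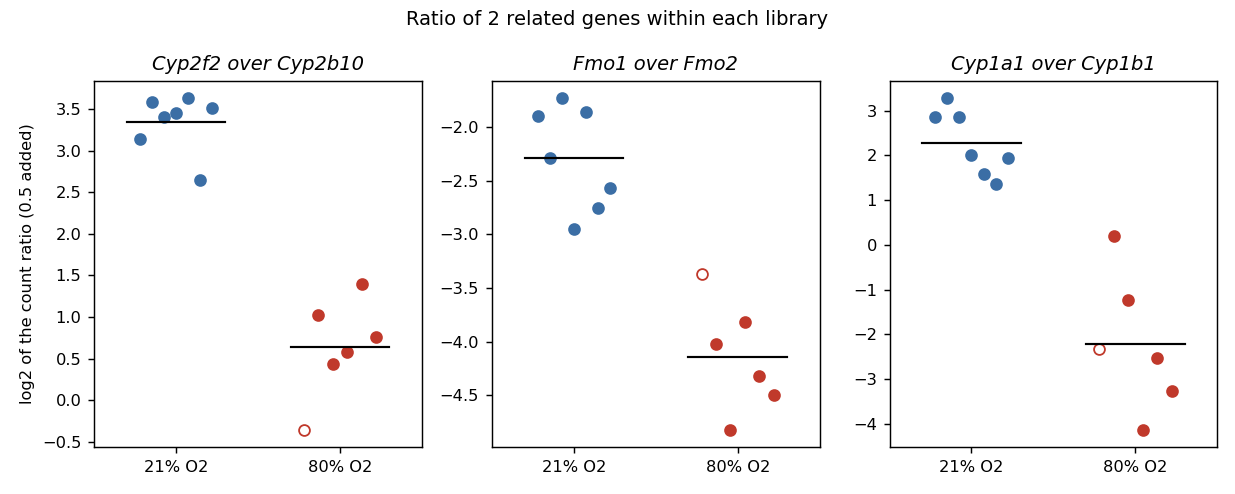
Log2 of the ratio of 2 counts within each library, with 0.5 added to each count, for Cyp2f2 over Cyp2b10, Fmo1 over Fmo2 and Cyp1a1 over Cyp1b1 in normoxia (blue) and hyperoxia (red); bars are group means and the open circle is hyperoxia replicate 1. In each panel all 6 hyperoxic libraries lie below all 7 normoxic ones.

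The remaining members did not pass the test. Cyp2b10, the phenobarbital-inducible P450 controlled in liver by the receptor CAR, had 39.3 to 90.0 CPM (median 68.5) in normoxia and 16.6 to 84.6 CPM (median 66.8) in hyperoxia. Its log2 fold change was −0.13 ± 0.29 (SE, 95% interval −0.73 to 0.48), and it turned to 0.076 without hyperoxia replicate 1. Other genes of the mouse Cyp2b cluster are close copies, so that its count is uncertain where the counting split reads between them. Few counts were assigned to these: Cyp2b9 was at 0 in all libraries, and Cyp2b13, Cyp2b19 and Cyp2b23 reached at most 0.38, 4.46 and 3.75 CPM. The log2 ratio of Cyp2f2 to Cyp2b10 counts was between 2.65 and 3.64 in normoxia and between −0.36 and 1.40 in hyperoxia, a difference of −2.70, or −2.50 without hyperoxia replicate 1. This pair too was chosen after the values had been seen.

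Cyp4b1, which hydroxylates fatty acids and activates 4-ipomeanol in lung, had 279 to 557 CPM (median 389) in normoxia. In hyperoxia it had 40.2 CPM in replicate 1 and 310 to 713 CPM in the other libraries. The log2 fold change was 0.05 ± 0.40 (SE, 95% interval −0.79 to 0.89), with a sign that depended on the setting. Ephx1, which opens epoxides made by P450 enzymes, had 25.4 to 82.5 CPM (median 62.5) in normoxia and 9.11 to 85.8 CPM (median 56.9) in hyperoxia. Its log2 fold change was −0.15 ± 0.37 (SE, 95% interval −0.94 to 0.65) and 0.081 without hyperoxia replicate 1, and the pseudogene Gm36961 overlaps it on the same strand. Intervals of this width do not show that these levels were equal.

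Cyp2e1, the ethanol-inducible P450, had 15.3, 1.05, 14.1, 15.8, 15.3, 7.25 and 8.33 CPM in normoxia replicates 1 to 7. In hyperoxia replicates 1 to 6 it had 0, 25.7, 3.82, 4.58, 6.25 and 4.59 CPM. Normoxia replicate 2 lay far below the rest of its group, and in hyperoxia replicate 1 was at 0 while replicate 2 was far above the others. The log2 fold change was −0.54 ± 0.63 (SE, 95% interval −1.88 to 0.80, adjusted p = 0.583, edgeR). It was −1.41 without hyperoxia replicate 2 (adjusted p = 0.0860, within a range of 0.0860 to 0.728 over the alternatives). The libraries with the lowest Cyp2e1, normoxia replicate 2 and hyperoxia replicate 1, also had the lowest sum of 9 adipocyte markers in their groups, 90.8 and 74.0 CPM, whereas the highest sums were 326 CPM in normoxia and 282 CPM in hyperoxia. The other hyperoxic libraries did not follow this order throughout, since replicates 3 and 6 had sums of 214 and 255 CPM with Cyp2e1 at 3.82 and 4.59 CPM, and replicate 5 a sum of 164 CPM with Cyp2e1 at 6.25 CPM. Fabp4, which was not called, was the largest part of the adipocyte sums, with means of 112 CPM in normoxia and 126 CPM in hyperoxia. Of the 9 adipocyte markers 6 were tested and 1 was lower, and Ucp1 was at 0 in all normoxic libraries. The part of adipose tissue in these levels was not tested.

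**Figure D3:**
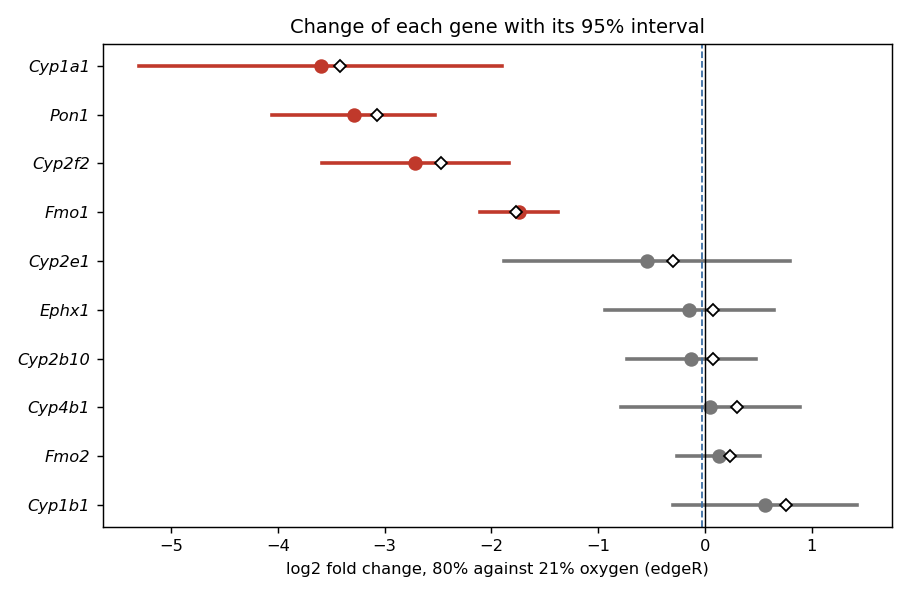
Log2 fold change of each gene in 80% against 21% oxygen (edgeR, filled circles, red where called) with its 95% interval; open diamonds give the value without hyperoxia replicate 1 and the dashed line is the median of all genes tested, −0.03. The intervals of Cyp1a1, Pon1, Cyp2f2 and Fmo1 lie wholly below 0, and those of the other 6 genes cross it.

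Whether the effect of oxygen differed between the letter sets was tested as an interaction. It was called for 0 of 12496 genes (0%) by edgeR, with 1158 at an unadjusted p under 0.05, and the smallest adjusted p among the 10 genes was 0.539, for Ephx1. Differences in mean log2 CPM had opposite signs in the sets of letters B to M and O to S for Cyp2b10 (−0.69 and 0.47), Cyp4b1 (−0.92 and 0.55), Ephx1 (−1.21 and 0.88) and Fmo2 (0.26 and −0.17). These differences for letters B to M include hyperoxia replicate 1. Without it, which leaves 2 hyperoxic libraries in that set, they were 0.011 for Cyp2b10, 0.30 for Cyp4b1, −0.42 for Ephx1 and 0.56 for Fmo2, so that the opposite signs of Cyp2b10 and Cyp4b1 rested on that library. For Cyp2e1 the difference within letters B to M turned from −1.24 to 0.10 without it, against −0.55 within letters O to S. For the 4 called genes both sets gave a negative difference, and without that library letters B to M gave −2.70 for Cyp2f2, −3.01 for Pon1, −1.72 for Fmo1 and −2.001 for Cyp1a1.

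**Figure D4:**
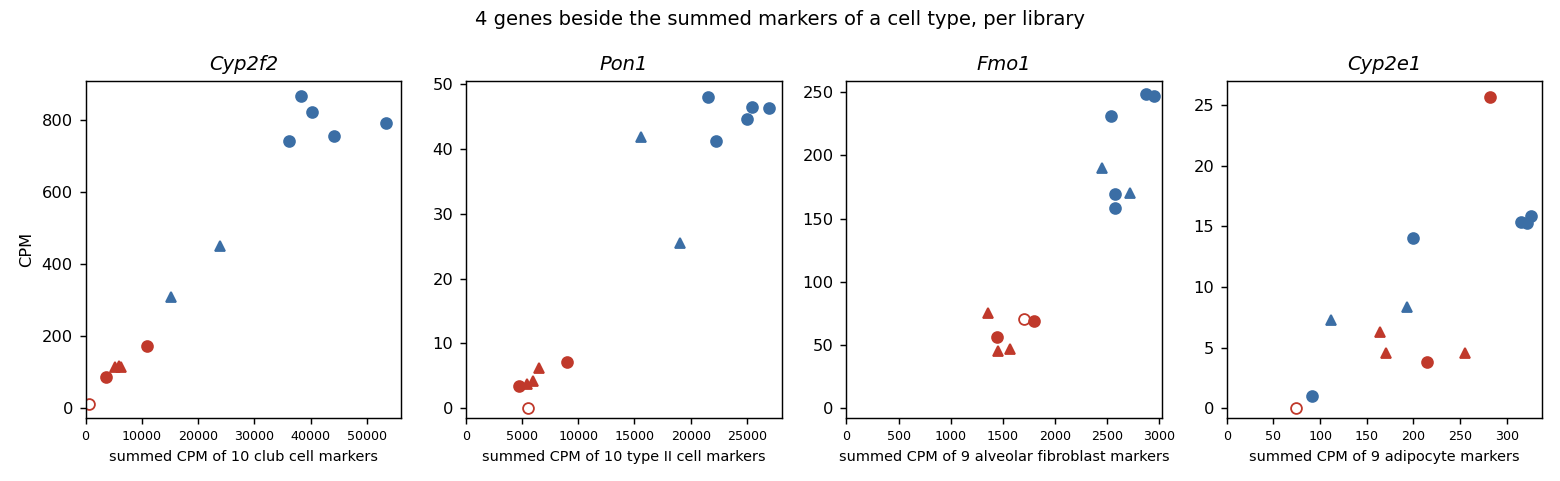
CPM of Cyp2f2, Pon1, Fmo1 and Cyp2e1 in each library against the summed CPM of markers of club cells, type II cells, alveolar fibroblasts and adipocytes; blue is normoxia, red hyperoxia, circles letters B to M, triangles O to S and the open circle hyperoxia replicate 1. Cyp2f2 and the club cell sum are both lower in all 6 hyperoxic libraries, and the 2 blue triangles hold the lowest normoxic values of both.

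The genes that followed each member most closely were taken by Pearson r of log2 CPM over the 13 libraries after the group mean was removed. They hold the highest values in a search over 10111 or 10112 genes for each member. These correlations are descriptions over libraries that share depth and tissue composition. Cyp2f2 was followed by Selenbp1 (r = 0.991) and Scgb1a1 (r = 0.986), and Pon1 by the type II cell phosphate transporter Slc34a2 (r = 0.976) and the secretoglobin Scgb3a2 (r = 0.967). Without hyperoxia replicate 1 these values were 0.970, 0.954, 0.890 and 0.849. Cyp1a1 was followed by Lyve1 (r = 0.946), a hyaluronan receptor of lymphatic vessels and some macrophages, and by Zfp707 (r = 0.918). Between the groups Lyve1 went the other way from Cyp1a1, with a log2 fold change of 3.14 (adjusted p = 2.2e-07, edgeR). The genes nearest to Cyp4b1 were Hspe1 and Ndufa6 (r = 0.996 and 0.993), P4hb was among those nearest to Ephx1 (0.986), and those nearest to Cyp2b10 were Rpl7 and 2810025M15Rik (0.981 and 0.974). For Fmo2 they were Pdss1 and Tmem106b (0.940 and 0.936), for Cyp1b1 Zfand2a and Gramd4 (0.887 and 0.874), for Cyp2e1 Gm13304 and Wdr66 (0.883 and 0.877) and for Fmo1 Mtmr4 and Wsb2 (0.844 and 0.793). Without hyperoxia replicate 1 the values were 0.784 and 0.749 for Cyp1b1, 0.825 and 0.785 for Cyp2e1 and between 0.781 and 0.987 for the genes named here beside Cyp1a1, Cyp2b10, Cyp4b1, Ephx1, Fmo1 and Fmo2.

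Among AhR, its partners and other receptors and factors that control these enzymes, 14 of 16 genes were tested, 2 were lower and 1 was higher. Over all tested genes 10.8% were lower and 11.8% higher. Ahr itself, the receptor that induces Cyp1a1 and Cyp1b1, was between 49.5 and 90.3 CPM in normoxia and between 23.4 and 36.5 CPM in hyperoxia, with no overlap. Its log2 fold change was −1.24 ± 0.17 (SE, adjusted p = 8.9e-05, edgeR). Cebpa, a factor of differentiated epithelium, was lower (−0.85 ± 0.25, lost in 4 of 21 alternatives, a count that here and for other genes leaves out the limit of 1.5 on the log2 fold change), and Nfe2l2, which encodes NRF2, was higher (0.62 ± 0.18, lost in 2 of 21). Named for their place in the AhR pathway after their values were seen, the partner Arnt had a log2 fold change of −0.12 ± 0.18, the repressor Ahrr 0.25 ± 0.35 and the AhR target Tiparp 0.39 ± 0.19, none of them called. Of 7 further AhR target genes 2 were tested and 0 were called by edgeR at either the adjusted or the unadjusted threshold, among them Nqo1 with 0.90 ± 0.46. Gsta1, a glutathione transferase of the same list that did not pass the filter, had 0 to 1.49 CPM in normoxia and 0 to 10.4 CPM in hyperoxia, with means of 0.35 ± 0.53 (SD, n = 7) and 6.94 ± 3.94 CPM (SD, n = 6). It was named after its values were seen, and it is a close copy of Gsta2, so that its count is uncertain. The 7 genes summed to 8.33 to 16.4 CPM in normoxia, to 2.14 CPM in hyperoxia replicate 1 and to 19.7 to 32.5 CPM in the other hyperoxic libraries. The higher sums came mainly from Gsta1 and from Nqo1, with means of 3.97 CPM in normoxia and 7.38 CPM in hyperoxia. Ugt1a6b was near 0 in both groups. The means of Gsta2, Aldh3a1, Ugt1a6a and Cyp1a2 were lower in hyperoxia, for Aldh3a1 1.82 CPM against 2.76 CPM in normoxia. The sum thus does not describe the list as a whole. Without the filter 4 genes of the receptor and target lists together were called, 2 of them higher. Without hyperoxia replicate 1, Tiparp (0.54, adjusted p = 0.0133) and Nqo1 (1.15, adjusted p = 0.00693) passed the test as higher, with adjusted p-values over all alternatives of 0.0133 to 0.396 and 0.00693 to 0.634.

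In the list of electron and haem genes of P450 enzymes, which includes the haem oxygenases Hmox1 and Hmox2, 11 of 13 were tested. By the adjusted threshold 1 was lower and 1 higher, against 10.8% and 11.8% of all tested genes. Por, the P450 reductase, was lower (−0.53 ± 0.16), a call lost in 8 of 21 alternatives, and Cyb5r1, a cytochrome b5 reductase, was higher (0.99 ± 0.26). Among the other genes of P450 families 1 to 4, 12 of 75 were tested and 33 had no count. In this group 2 were lower, Cyp4v3, a fatty acid hydroxylase (−1.08 ± 0.14, no overlap), and Cyp2s1 (−0.81 ± 0.24, lost in 1 of 21 alternatives). Of the 12, 10 had a value below 0, with a median of −0.59. Among all tested genes 10.8% were lower and 47.8% lay above 0, with a median of −0.03. In the other P450 families 6 of 19 were tested, of which Cyp7b1, the oxysterol hydroxylase, was higher (1.44 ± 0.29, no overlap) and Cyp27a1, the sterol 27-hydroxylase, lower (−1.59 ± 0.51, lost in 8 of 20 alternatives). Of the other FMO, EPHX and PON genes 4 of 10 were tested, and Fmo5 was among the lower genes (−1.66 ± 0.17, no overlap).

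Among 30 conjugating and other drug-metabolising enzymes 23 were tested, with 3 higher at an unadjusted p under 0.05. At the adjusted threshold by edgeR 5 were lower and 0 were higher, against 10.8% and 11.8% of all tested genes. Without hyperoxia replicate 1 the counts were 5 lower and 4 higher. The aldehyde oxidase Aox3 fell from 137 ± 20.5 (SD, n = 7) to 35.5 ± 13.9 CPM (SD, n = 6), a log2 fold change of −1.96 ± 0.22 (SE), and the carboxylesterase Ces1d from 257 ± 36.8 to 92.6 ± 43.9 CPM (−1.47 ± 0.36), both with no overlap. The carbonyl reductase Cbr2 (−1.43 ± 0.37, lost in 1 of 21 alternatives) and the aldehyde dehydrogenase Aldh1a7 (−0.88 ± 0.29) were also lower. The fifth was Ces1f (−1.46 ± 0.49), outside the naming rule and named after its value was seen, whose call was lost in 11 of 20 alternatives and that of Aldh1a7 in 8 of 20. The Ces1 genes are close copies of each other, so that their single counts are uncertain.

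**Figure D5:**
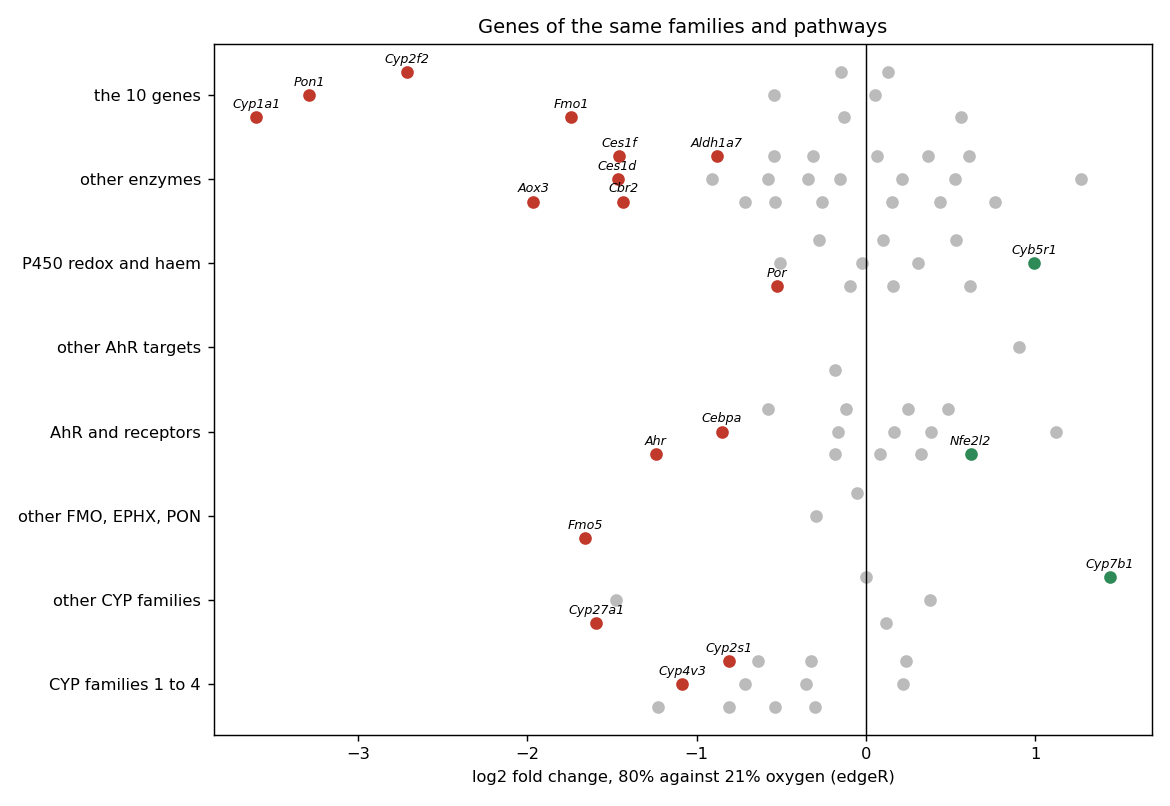
Log2 fold change (80% against 21% oxygen, edgeR) of tested genes in the 10 members and in 7 lists of related genes; red points were called lower, green points higher and grey points were not called. The called P450, FMO and other enzyme genes lie below 0, with Cyp7b1 and Cyb5r1 as exceptions above it.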

How the data were processed

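Lung RNA of 7 normoxic and 6 hyperoxic samples was sequenced by Quant-seq. Reads were assigned to genes by the authors through BioJupies, which runs the pseudoaligner kallisto. The deposited counts are whole numbers per gene symbol, unfiltered. The deposited log10 values are log10 of CPM plus 1 with the total count as divisor and matched a recomputation to within 4.4e-16. The submitters' processing notes name mm10 and limma 3.54.2, and 0 columns were left unmapped.

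The counts were tested with edgeR 4.0.16 in R 4.3.3 (TMM scaling, filterByExpr, glmQLFit and glmQLFTest, Benjamini-Hochberg). The standard error is the log2 fold change over the root of F, and intervals use the t quantile at 95%. A prior count of 2 was added for log2 CPM. Exact permutation tests were two-sided and covered all 1716 assignments of 7 and 6 libraries. The floor was 3 counts, and floors cover counting error only. All 36 pairs of libraries of the same group differed by more than the sampling noise, with a chi-square per gene of at least 3.79. Coordinates are from GENCODE M21 (GRCm38), matched by symbol, and promoters from RefSeq, found for 9 of 10 members and not for Fmo1.

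Alternatives were DESeq2 1.42.0, limma-voom, limma 3.58.1 on the log10 values, library size only, all genes without a filter, a minimum of 10 counts in every library, a fold limit of 1.5 in log2, a replicate block, the letter set as a term and each library left out. The fits were tested on simulated counts. Count ratios within libraries were an addition made after seeing the data. The members and all gene lists were chosen with earlier results of these data known. Named genes were the 10 members, up to 4 called genes a direction from each pathway or family list by smallest adjusted p, the 2 closest genes by Pearson r for each member (mean log2 CPM 3 or more), and cell markers beside a member's result. Of these, 2 genes are not reported here.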

Additional observations from a re-analysis of the deposited data

Results flagged for a closer look

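Of 24 group values of the 10 genes, the total count and the mean correlation, 8 had an extreme library by Dixon's ratio (its gap to the nearest library over the range of the group), where chance gives about 1 in 20. In hyperoxia replicate 1 the low values of Cyp1b1 (ratio 0.704), Cyp2f2 (0.727), Cyp4b1 (0.709) and Pon1 (0.741) were such, as was its mean correlation with the other libraries (0.763). In log2 CPM, Cyp4b1 was at 5.35 there and at 8.28 in the next library, and Cyp2f2 at 3.76 and 6.43. In normoxia, Cyp2e1 was low in replicate 2 (0.676), Pon1 was low in replicate 7 (0.754), and the total count of 1607111 was low in replicate 5 (0.612).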

How the results depend on the processing

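Cyp1a1, Cyp2f2, Fmo1 and Pon1 were called lower, and no other member was called, in 20 of 21 alternatives other than the limit of 1.5 on the log2 fold change, which the 4 genes also passed. With at least 10 counts in every library 6 members were tested and 2 were called, Cyp2f2 and Fmo1, since Cyp1a1 and Pon1 have libraries below that count. Of the members' values 10 changed sign, all of them of genes that were not called. Cyp4b1 was −0.29 with limma-voom, −0.38 with limma on the log10 values, −0.0027 with library size only and −0.20 with the replicate block, and ran from −0.17 to 0.31 with 1 library left out. With 1 library left out Cyp2b10 ran from −0.23 to 0.076, Ephx1 from −0.32 to 0.081 and Ahrr from −0.056 to 0.45. The cause was not tested. The median of all genes moved from −0.03 to −0.16 with limma on the log10 values.

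Of all genes 2819 were called, 488 with a log2 fold change over 1.5, 1344 with the replicate block and 2305 to 3633 with 1 library left out. The same settings gave 1, 2 and 3 to 7 in place of 4 P450 genes, 1, 1 and 1 to 2 in place of 2 FMO, EPHX and PON genes, 0, 1 and 2 to 6 in place of 3 AhR and receptor genes, 0, 1 and 1 to 3 in place of 2 redox genes, and 1, 2 and 3 to 9 in place of 5 conjugating and other enzymes. The highest counts were 7 P450 genes without hyperoxia replicate 2, and 6 AhR and receptor genes and 9 conjugating and other enzymes without hyperoxia replicate 1. At least 10 counts in every library left 2 P450 genes and 3 conjugating and other enzymes, and no filter left 1 redox gene. Replicate numbers did not pair the libraries (correlations of deviations from −0.33 to 0.27), and the replicate block left the 4 calls among the members in place.

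Depth limits Cyp1a1, Cyp1b1, Cyp2e1 and the hyperoxic values of Pon1, where single libraries held few counts.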
